A study of Homo sapiens with 6 samples.

Results

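The genes described here encode the human ABC transporters, and they were taken as the rows of the authors' table of all genes whose symbol is ABC followed by a subfamily letter from A to G and a number. Of the 16953 genes in the table, 42 taken by this rule are described, and ABCF1 was not analysed here. Of the 42 genes, 39 carried an adjusted p, against 15976 genes of the whole table.

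H1048, a human small cell lung cancer line labelled wild type, received the macrolide isovalerylspiramycin I (ISP-I) at 10 µM or the solvent DMSO. Each condition was held for 48 h in 3 samples, and RNA of all 6 samples was sequenced. The design text calls the samples of a condition biological replicates, and all of them come from a single cell line. The authors compared a set of 3 libraries lettered D to F with a set lettered A to C, and no label used here gives a library's treatment by its letter. Every difference is therefore the D-F set relative to the A-C set, and which set received ISP-I is not stated in these sources. Values per library are listed but were not used for the same reason. The values described are therefore fold changes and p-values, without levels, standard errors or depth.

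ABC transporters bind and hydrolyse ATP in paired nucleotide-binding domains and use that energy to move a substrate across a membrane. Subfamily A moves mostly lipids. Subfamily B holds the drug pump P-glycoprotein as well as transporters of mitochondria and lysosomes. Subfamily C holds the multidrug resistance proteins and the regulatory subunits of a potassium channel. Subfamily D serves peroxisomes and lysosomes, and subfamily G exports sterols and drugs. Subfamilies E and F have the ATP-binding domains but no membrane part and act on ribosomes and translation. In tumours the family is known above all for efflux of anticancer drugs by ABCB1, ABCC1 and ABCG2.

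Drug efflux genes of this family were called in both directions between the library sets. The breast cancer resistance protein gene ABCG2 was 11-fold higher in the D-F set and the conjugate exporter gene ABCC3 10.0-fold higher, while the drug efflux gene ABCC1 was 2.29-fold lower. Outside that role, the sterol exporter gene ABCG1 was 4.03-fold lower, all in the authors' deposited table. A gene was called at an adjusted p under 0.05 there. By that rule 8 members were higher in the D-F set, 10 were lower and 21 were not called. Among all genes with an adjusted p, 57.6% were called, 29.7% as higher and 27.9% as lower. The members' share called, 46.2%, was thus not above that background. At 2-fold or more, 5 members were called higher and 5 lower, against backgrounds of 12.8% and 11.3% of genes. The median log2 fold change of the 39 members was -0.26, against 0.05 over all genes with an adjusted p. In bulk RNA, fewer cells of a type and less RNA per cell cannot be told apart.

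**Figure D1:**
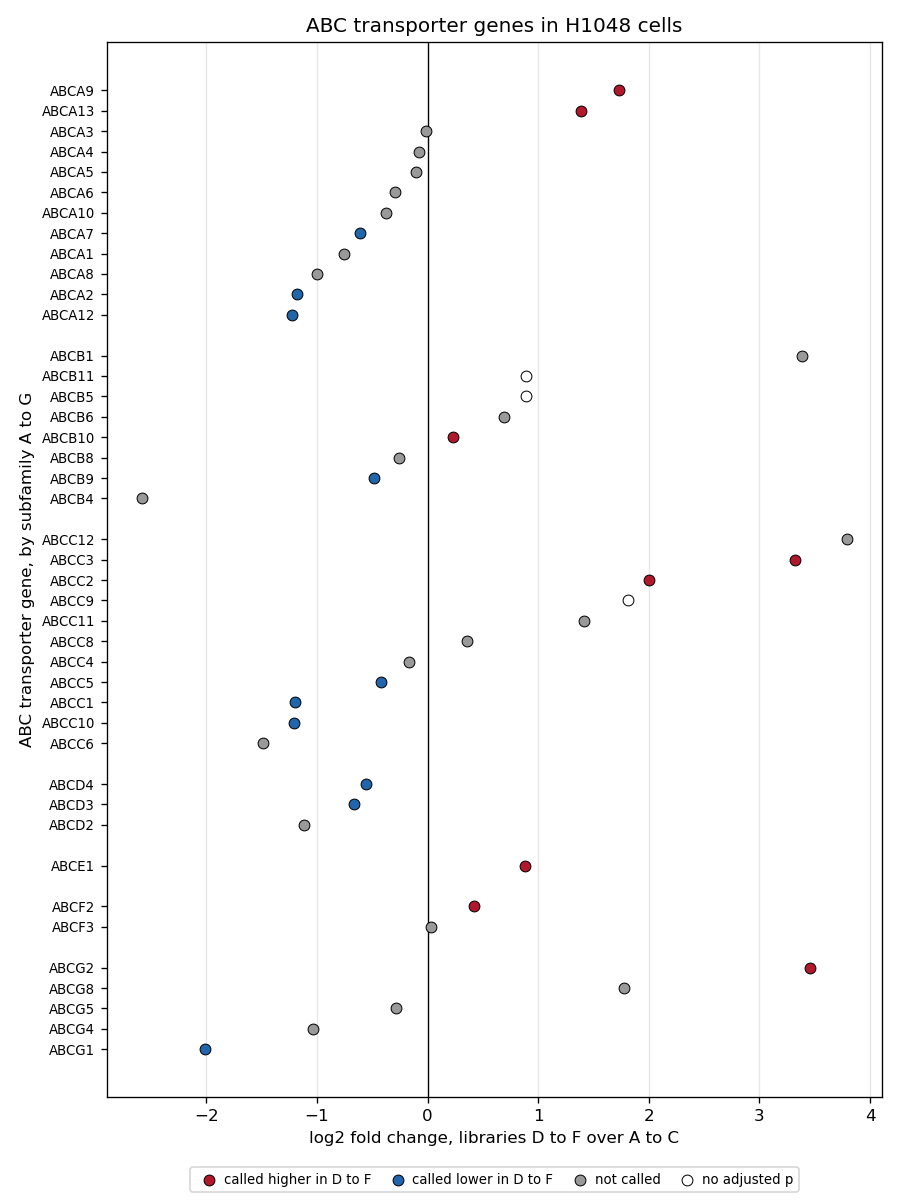
Log2 fold change of libraries D to F over A to C (horizontal axis) for each of the 42 ABC transporter genes, grouped by subfamily A to G from top to bottom and sorted within each; colour gives the call at an adjusted p under 0.05 in the authors' table. ABCG2 and ABCC3 are the called genes farthest to the right and ABCG1 the called gene farthest to the left, while ABCC12, ABCB1 and ABCB4 lie as far out without a call.

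The promoter windows of 3 genes are shown because they belong to the members higher in the D-F set with the smallest p-values after ABCC3, which matched no window, and because AHR, a receptor that reads one of the motifs searched, was itself higher there. Windows run from 250 bases before to 50 bases after an annotated start, on GRCh38.p14, and were taken from RefSeq. Of the 42 members 34 matched a window, 52 windows in all; ABCA4, ABCA8, ABCB4, ABCB5, ABCC1, ABCC3, ABCC8 and ABCG1 did not. Capitals mark the core motif bound by AHR with ARNT, GCGTG, or a core of the antioxidant response element bound by NRF2, TGACNNNGC; both were searched on both strands, so that a match may appear as the reverse complement. ABCG2 has 5 windows, all on the minus strand. Those shown lie at chr4:88158860-88159159 (downstream), chr4:88159241-88159540 (middle) and chr4:88231577-88231876 (far upstream), and the other two overlap the downstream one and, like it, hold 2 GCGTG matches each. The windows of the other genes shown are that of ABCC2 on the plus strand at chr10:99782390-99782689, and that of ABCE1 on the plus strand at chr4:145098061-145098360.
ABCG2, downstream window: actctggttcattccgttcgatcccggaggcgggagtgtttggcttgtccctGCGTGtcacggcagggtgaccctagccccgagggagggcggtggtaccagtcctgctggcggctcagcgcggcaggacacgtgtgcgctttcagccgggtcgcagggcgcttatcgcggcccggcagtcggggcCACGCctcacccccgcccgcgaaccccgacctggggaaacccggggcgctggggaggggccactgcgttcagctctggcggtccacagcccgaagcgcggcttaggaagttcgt
ABCG2, middle window: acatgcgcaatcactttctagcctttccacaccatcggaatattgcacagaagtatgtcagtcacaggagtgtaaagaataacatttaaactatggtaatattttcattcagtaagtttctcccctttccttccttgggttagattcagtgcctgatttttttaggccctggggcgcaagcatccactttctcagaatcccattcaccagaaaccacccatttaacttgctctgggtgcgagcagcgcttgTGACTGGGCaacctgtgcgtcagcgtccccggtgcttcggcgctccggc
ABCG2, far upstream window: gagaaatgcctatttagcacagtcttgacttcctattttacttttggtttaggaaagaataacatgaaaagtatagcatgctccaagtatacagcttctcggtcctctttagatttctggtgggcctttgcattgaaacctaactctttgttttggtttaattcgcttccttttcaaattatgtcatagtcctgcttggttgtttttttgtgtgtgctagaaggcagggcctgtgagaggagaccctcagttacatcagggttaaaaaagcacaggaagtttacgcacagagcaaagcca
ABCC2: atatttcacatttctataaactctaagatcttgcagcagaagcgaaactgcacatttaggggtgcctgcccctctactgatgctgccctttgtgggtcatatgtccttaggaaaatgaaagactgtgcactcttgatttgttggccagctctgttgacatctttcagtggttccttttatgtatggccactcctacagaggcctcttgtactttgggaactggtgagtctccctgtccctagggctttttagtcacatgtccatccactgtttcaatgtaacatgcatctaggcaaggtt
ABCE1: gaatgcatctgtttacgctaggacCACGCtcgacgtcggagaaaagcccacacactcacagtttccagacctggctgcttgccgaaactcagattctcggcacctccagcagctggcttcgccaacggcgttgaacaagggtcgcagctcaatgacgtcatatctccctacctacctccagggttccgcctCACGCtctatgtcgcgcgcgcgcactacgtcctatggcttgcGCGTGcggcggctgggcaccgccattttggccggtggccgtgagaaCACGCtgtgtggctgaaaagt

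The downstream ABCG2 window held 2 GCGTG matches, the middle one 1 TGACNNNGC match, and the far upstream one neither. The ABCC2 window held neither motif, and the ABCE1 window held 4 GCGTG matches. Over all members' windows, 42.3% held GCGTG and 21.2% held TGACNNNGC. Over all 34796 windows of the reference tested (chromosome 8 left out) the shares were 36.4% and 13.3%. GCGTG was in 6 of 11 windows of members called higher, in 9 of 13 windows of members called lower, and in 7 of 26 windows of members not called. TGACNNNGC was in 1 of 11, 4 of 13 and 6 of 26 of these windows in the same order. ABCG2 alone supplied 5 of the 11 windows of members called higher, which belong to alternative starts and partly overlap, and the 1 TGACNNNGC match among them. Among members called lower, ABCA2 and ABCB9 each had more than 1 window, every one with GCGTG. Several members not called also had more than 1 window. Windows of the same gene are not independent, and base composition was not compared between these sets of windows. A match describes the letters of the window and shows no binding.

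Among the 9 genes of drug and conjugate efflux, 3 were called higher in the D-F set and 3 lower (66.7% called, against 57.6% of all genes), with a median log2 fold change of 1.41 that belongs to ABCC11, which was not called. ABCC3 encodes MRP3, which exports glucuronides and bile salts across the basolateral membrane (chromosome 17, 50634777 to 50692252, plus strand). Its log2 fold change was 3.32 with an adjusted p of 1.43e-28 in the authors' deposited table, rank 1003 by p among the 15976 genes. ABCG2 encodes the efflux pump BCRP, which dimerises in the plasma membrane (chromosome 4, 88090264 to 88231322, minus strand). It had a log2 fold change of 3.46 in the authors' deposited table (adjusted p = 3.04e-25, rank 1211). ABCC2 encodes MRP2, the apical exporter of bilirubin glucuronides and glutathione conjugates (chromosome 10, 99782640 to 99852594, plus strand). The authors' deposited table gives it a positive log2 fold change of 2.00 (adjusted p = 2.49e-08).

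The members of this role that were lower in the D-F set included the gene of MRP1, the exporter of glutathione conjugates and leukotriene C4. This gene, ABCC1 (chromosome 16, 15949577 to 16143074), was 2.29-fold lower, as the authors' deposited table lists it (log2 fold change -1.20, adjusted p = 0.000874). ABCC10, which encodes MRP7, was 2.31-fold lower there (adjusted p = 2.26e-08). ABCC10 shares exon positions with DLK2 on the opposite strand, which was called higher (1.30, adjusted p = 6.80e-08). In all, 16 of the 42 members share exon positions with another annotated gene. Of these, 11 do so with a gene on the opposite strand (ABCA8, ABCA9, ABCA12, ABCB8 and ABCC9 with genes annotated as antisense). A gene on the same strand is shared by 6 (ABCA5, ABCA10, ABCB6, ABCC11, ABCD4 and ABCF2), whose values are uncertain for that reason. Whether counting used strand is not stated in these sources. ABCC5, an exporter of cyclic nucleotides, was 1.34-fold lower (adjusted p = 0.00157 in the authors' deposited table). ABCC1, ABCC2 and ABCC3 export overlapping sets of conjugates, and in this comparison ABCC1 stood on the other side from ABCC2 and ABCC3.

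The remaining genes of drug efflux were not called. ABCB1, the gene of P-glycoprotein, had a log2 fold change of 3.38 in the authors' deposited table, close to that of ABCG2, with an adjusted p of 0.216. The same pair of fold change and p-value is listed for 2 genes of the table, ABCB1 included. ABCC4, an exporter of cyclic nucleotides and prostaglandins, was at -0.16 (adjusted p = 0.248), and ABCC11, which secretes lipophilic compounds in apocrine glands, at 1.41 (adjusted p = 0.643; also listed for 2 genes). The difference between the library sets was thus not resolved for ABCB1, whatever the size of its listed fold change. Without the members whose place in this group is debated (ABCC5, ABCC10 and ABCC11), the median log2 fold change of the group was 2.66. This leaves out ABCC5 and ABCC10, both called lower, and no gene called higher, and it keeps the uncalled ABCB1 at 3.38. The rise of the median thus depends on which genes are dropped.

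**Figure D2:**
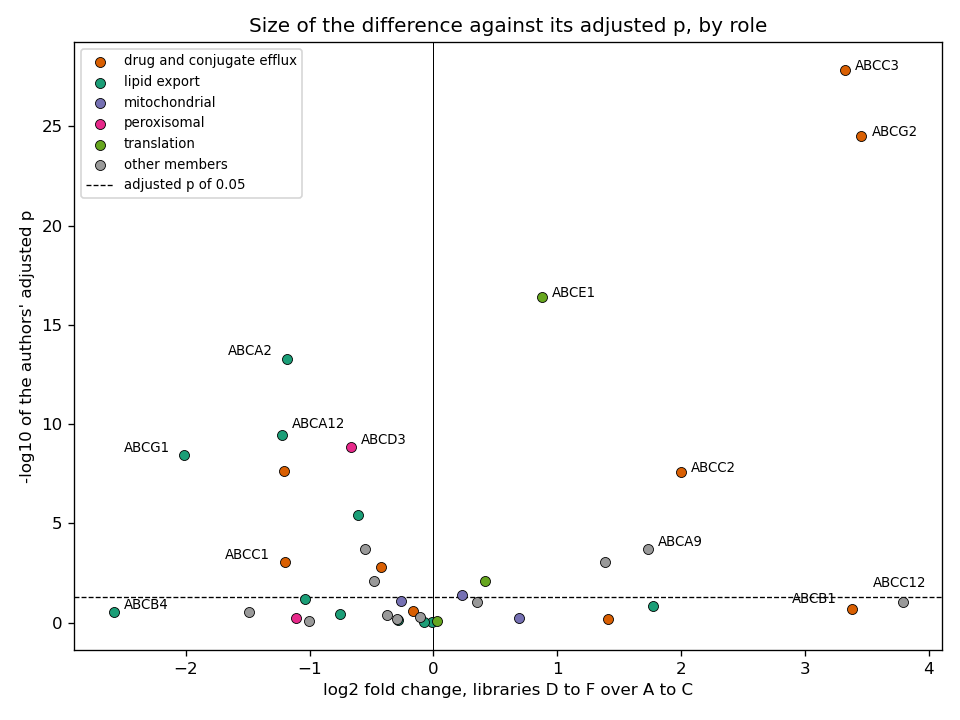
Log2 fold change of libraries D to F over A to C (horizontal axis) against the negative log10 of the authors' adjusted p (vertical axis) for the 39 members with an adjusted p, coloured by role; the dashed line marks an adjusted p of 0.05. ABCC3 and ABCG2 stand at the top right, whereas ABCB1 at a similar fold change lies under the line.

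None of the 11 genes of lipid export was called higher in the D-F set and 4 were called lower, so that 36.4% were called, a smaller share than the 57.6% of all genes. The group had a median log2 fold change of -0.76 and 10 of 11 values below 0, against 7683 of 15976 over all genes. The place of ABCA2 and ABCA7, both called lower, and of ABCA4 and ABCG4, neither called, in this group is debated. Without these genes the median was also -0.76. Subfamily A also holds ABCA9 and ABCA13, both called higher, which were placed outside the lipid export group. The count of calls in this group thus depends on how roles were assigned, and they were chosen with earlier results of these data known. ABCG1 passes cholesterol to lipoprotein particles (chromosome 21, 42199689 to 42297244, plus strand), and its log2 fold change was -2.01 in the authors' deposited table (adjusted p = 3.51e-09). ABCA2, an endolysosomal transporter tied to sterol handling, was 2.26-fold lower there (chromosome 9, 137007227 to 137028922; adjusted p = 5.05e-14, the smallest p of the group). ABCA12, which loads glucosylceramides into the lamellar granules of skin, was 2.33-fold lower in the authors' deposited table (chromosome 2, 214931542 to 215138428; adjusted p = 3.57e-10). ABCA7, a phospholipid exporter, was 1.53-fold lower there (adjusted p = 3.66e-06).

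ABCA1 moves cholesterol and phospholipid to apolipoprotein A-I and is induced by the same LXR receptors as ABCG1. It was at a log2 fold change of -0.76 without a call (adjusted p = 0.386 as the authors' deposited table lists it). The floppase of phosphatidylcholine in bile, ABCB4, had the largest listed decrease of the family at -2.58, also without a call (adjusted p = 0.304). ABCG4, a brain sterol exporter related to ABCG1, was at -1.03 (adjusted p = 0.0630 in the authors' deposited table). ABCA3, which fills the lamellar bodies of alveolar type II cells with surfactant lipid, was at -0.01 (adjusted p = 0.965), and the retinal transporter ABCA4 at -0.07 (adjusted p = 0.978). ABCG5 and ABCG8 are obligate partners in sterol excretion. Their genes lie head to head on opposite strands of chromosome 2, overlap in the annotation and share exon positions. ABCG5 was at -0.28 (adjusted p = 0.772) and ABCG8 at 1.78 (adjusted p = 0.144) in the authors' deposited table, and neither was called. ABCG8 was the only gene of lipid export with a value above 0.

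The peroxisomal and cobalamin transporters described here had all 3 listed values below 0, and 2 of them were called lower. Their share called, 66.7%, is to be read against the 57.6% of all genes. ABCD3, the importer of branched-chain acyl-CoA and bile acid precursors into peroxisomes, was 1.58-fold lower in the D-F set in the authors' deposited table (adjusted p = 1.44e-09). ABCD4, which releases cobalamin from lysosomes, was 1.47-fold lower (adjusted p = 0.000203 in the authors' deposited table). ABCD4 shares exon positions with another annotated gene on its own strand, AC005519.1, for which no value is listed, so its own value is uncertain. ABCD2, a peroxisomal importer of fatty acyl-CoA, had a larger listed change of -1.11 on the log2 scale but an adjusted p of 0.595. The median log2 fold change of subfamily D was -0.66, the lowest of the 7 subfamilies, and it rests on 3 genes.

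No mitochondrial member was called at 2-fold or more. ABCB10, an inner-membrane transporter that supports heme synthesis, was 1.17-fold higher in the D-F set (adjusted p = 0.0383 in the authors' deposited table). At an adjusted p under 0.01 it would not be called. ABCB8 was at a log2 fold change of -0.26 (adjusted p = 0.0769) and the porphyrin transporter ABCB6 at 0.69 (adjusted p = 0.589 in the authors' deposited table). ABCB6 shares exon positions with another annotated gene on its own strand, AC068946.2, which the table lists separately (0.84, adjusted p = 0.507), so its own value is uncertain. The lysosomal peptide transporter ABCB9 was 1.39-fold lower (adjusted p = 0.00836 in the authors' deposited table); it overlaps exons of OGFOD2 on the other strand, which was also called lower (-0.53).

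ABCE1 and ABCF2, members that do not transport anything, were both called higher in the D-F set. With ABCF3 they make 3 genes, 66.7% of them called, against 57.6% of all genes. ABCE1 splits ribosomes into subunits after termination so that they can be reused, and it was 1.84-fold higher in the authors' deposited table (chromosome 4, 145097932 to 145129179, plus strand; adjusted p = 3.78e-17). It had the third smallest p of the family although its fold change was under 2. ABCE1 overlaps exons of OTUD4 (0.75) and ANAPC10 (0.85) on the opposite strand, both also called higher in the authors' deposited table, and their part in the value of ABCE1 was not tested. ABCF2 was 1.34-fold higher (adjusted p = 0.00763), and ABCF3, which resembles the yeast activator of the kinase Gcn2, was at 0.03 (adjusted p = 0.808 in the authors' deposited table). ABCF2 shares exon positions with another annotated gene on its own strand, AC021097.2, for which no value is listed, so its own value is uncertain.

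Members with neither a drug nor a lipid export role listed here included both remaining genes called higher. ABCA9 was 3.33-fold higher in the D-F set in the authors' deposited table (adjusted p = 0.000193), and ABCA13, the longest protein of the family, 2.61-fold higher (adjusted p = 0.000892). ABCA9 lies on chromosome 17 in a row of related genes transcribed from the same strand, in the order ABCA8, ABCA9, ABCA6, ABCA10 and ABCA5, from 68867292 to 69327244. Its neighbours were not called: ABCA8 was at a log2 fold change of -1.0 (adjusted p = 0.788, a pair of values listed for 3 genes), ABCA6 at -0.30 (0.679), ABCA10 at -0.37 (0.402) and ABCA5 at -0.10 (0.525) in the authors' deposited table. ABCA9 thus stood alone in this row with a call, and the difference between it and its neighbours was not tested. On chromosome 16, ABCC1 and ABCC6 lie 5.85 kb apart, and only ABCC1 of this pair was called. ABCC6, an ATP release factor of hepatocytes with closely similar pseudogenes, was at -1.49 (adjusted p = 0.285 in the authors' deposited table), so its value is uncertain. ABCC12, next to ABCC11 on the same chromosome, had the largest listed fold change of the family at 3.79 without a call (adjusted p = 0.0957), and its pair of values is listed for 6 genes. ABCC8, the sulfonylurea receptor of a potassium channel, was at 0.35 in the authors' deposited table (adjusted p = 0.0951).

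The 3 members without an adjusted p are listed with values that many other genes share. The bile salt export pump gene ABCB11 and the gene ABCB5 share a listed log2 fold change of 0.89 and a p-value of 0.827 with 377 genes in all, and ABCC9, another sulfonylurea receptor, shares 1.81 with 45 genes. None of the genes that share these values was called in the authors' deposited table.

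Subfamilies A, B, C, F and G each had a smaller share of genes called than the table as a whole, and subfamily D and the single gene of subfamily E a larger one, from few genes in each case. In subfamily A 2 of 12 genes were higher and 3 lower (median log2 fold change -0.33), in subfamily B 1 and 1 of 6 (median -0.016), and in subfamily G 1 and 1 of 5 (median -0.28). Subfamily C had 2 higher and 3 lower of 10, with a median of 0.10 and values from -1.49 to 3.79. By build, the 24 full-length transporters with an adjusted p were 4 higher and 6 lower (41.7% called, against 57.6% of all genes). The 12 members built from a single transport module, which work as dimers, were 2 higher and 4 lower. These groups are small, and no test of a difference between them was made.

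**Figure D3:**
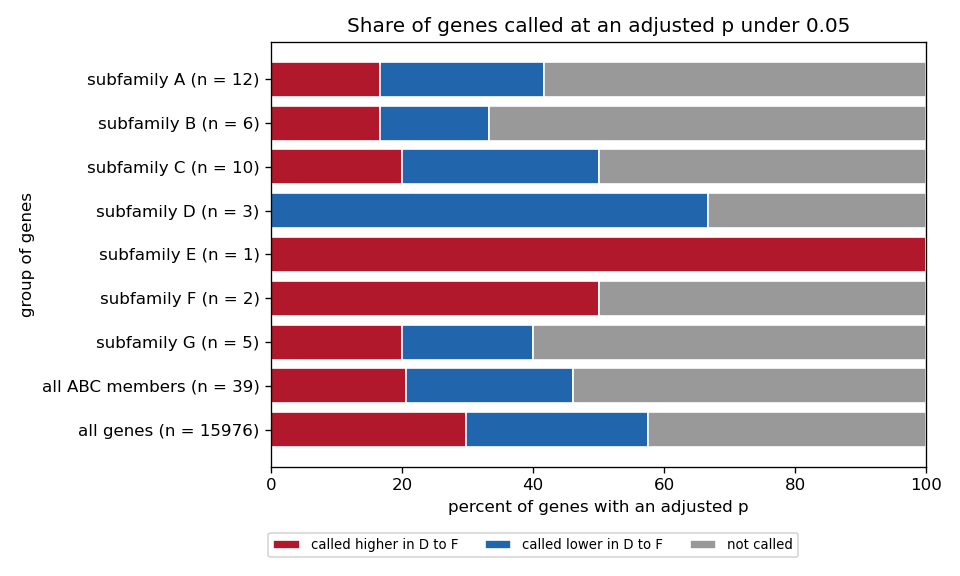
Percent of genes with an adjusted p that were called higher in the D-F set, called lower or not called (horizontal axis) for each ABC subfamily, all ABC members and all genes, with the number of genes in brackets. Called genes make up 46.2% of the members and 57.6% of all genes, and subfamily D shows calls in the lower direction alone.

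Genes that work with the transporters were read from lists of sensors, carriers and enzymes, and the share called in each list is to be read against the 57.6% of all genes. Among xenobiotic sensors and drug carriers of the SLC families, 7 of 14 genes were higher in the D-F set and 2 lower (64.3% called). The receptor AHR, which senses aromatic xenobiotics, was 13.8-fold higher in the authors' deposited table (adjusted p = 1.68e-210), whereas its DNA-binding partner ARNT was 2.09-fold lower (adjusted p = 8.64e-20). NFE2L2, the gene of the oxidative stress factor NRF2, was 2.38-fold higher (adjusted p = 3.80e-38). The prostaglandin carrier SLCO2A1 was 3.29-fold higher (adjusted p = 2.41e-08 in the authors' deposited table).

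Glutathione S-transferases, which make conjugates that ABCC proteins export, were 1 higher and 6 lower of 11 with an adjusted p (63.6% called), with a median log2 fold change of -0.64. GSTA4 (-1.75, adjusted p = 3.01e-30), MGST3 (-1.32, adjusted p = 5.64e-27), GSTK1 (-1.19) and GSTP1 (-0.52) were lower in the authors' deposited table. Of the 2 genes described here as exporting glutathione conjugates, ABCC1 was lower as well, while ABCC2 was higher.

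Sterol sensing and efflux partners were 6 higher and 7 lower of 15 (86.7% called), with only LCAT, the plasma enzyme that esterifies cholesterol, called at 2-fold or more (3.06-fold higher, adjusted p = 1.50e-15 as the authors' deposited table lists it). The sterol-binding protein OSBP was 1.84-fold higher and the lysosomal cholesterol exporter NPC1 1.59-fold higher. The LXR gene NR1H3 was 1.73-fold higher (adjusted p = 0.00136 in the authors' deposited table), and its partner RXRA was 1.93-fold lower (adjusted p = 1.03e-09). The other LXR gene, NR1H2, was higher at 0.27. ABCG1, which LXR and RXR induce, was lower, and LXR targets of the list were divided: MYLIP was higher (0.60), LPCAT3 (-0.53) and SREBF1 (-0.41) were lower in the authors' deposited table, and APOE was at -0.29 without a call. These LXR genes and targets were named after their values were seen.

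Partners of ABCE1 and the ABCF proteins on ribosomes were 6 higher and 2 lower of 10 (80.0% called, median log2 fold change 0.33). The release factor ETF1 (0.74), the rescue factor HBS1L (0.53) and the subunit anti-association factor EIF6 (1.29) were higher in the D-F set in the authors' deposited table. EIF2AK4, the gene of the kinase GCN2, was lower (-0.59, adjusted p = 1.22e-07).

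Partners of the mitochondrial transporters in heme and iron-sulfur synthesis were 3 higher and 8 lower of 14 with an adjusted p (78.6% called, median log2 fold change -0.45). ALAS1, the first enzyme of heme synthesis, was 1.96-fold higher in the D-F set (adjusted p = 6.96e-23 in the authors' deposited table), and the later enzymes UROD (-1.10), PPOX (-1.40) and ALAD (-0.79) were lower. Peroxisomal and cobalamin partners were divided, 6 higher and 6 lower of 19 (63.2% called). SCP2 (-1.20) and HSD17B4 (-0.84), which act in peroxisomal beta-oxidation, were lower in the authors' deposited table, and MMADHC (0.73), a cobalamin processing protein, and the thioesterase ACOT8 (0.94) were higher. Of the channel partners, KCNJ11 was lower (-0.44, adjusted p = 0.0141 in the authors' deposited table) and KCNJ8 was at -0.28 without a call. CFTR, an ABC family member by structure whose symbol falls outside the rule, was at 0.67 without a call (adjusted p = 0.785); TAP1 and TAP2 were not analysed here.

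**Figure D4:**
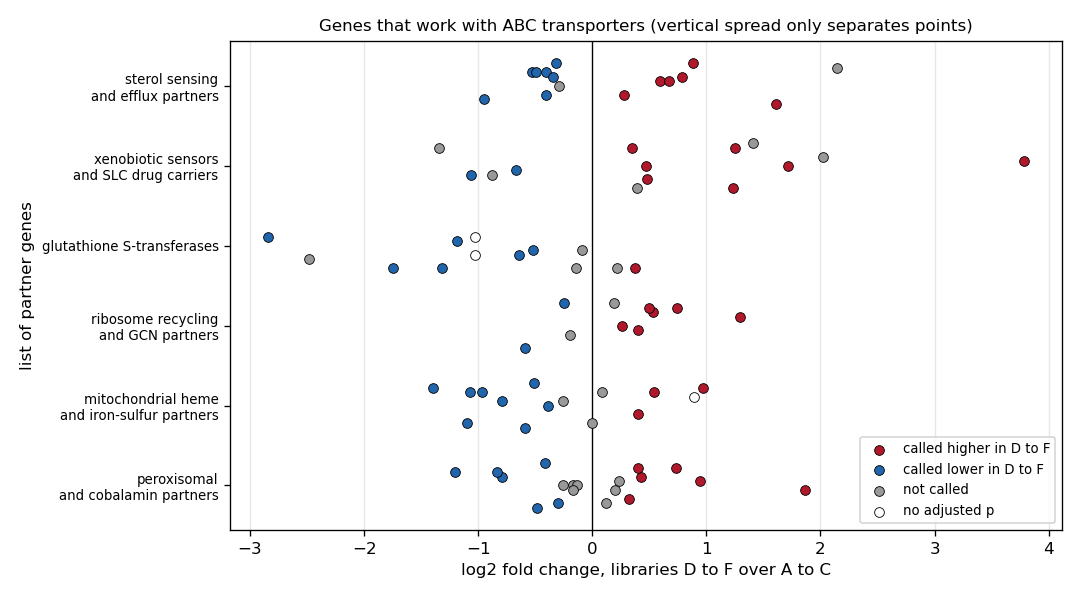
Log2 fold change of libraries D to F over A to C (horizontal axis) for genes of 6 partner lists (vertical axis), coloured by call at an adjusted p under 0.05 in the authors' table. AHR is the point farthest to the right, and 9 of the 11 glutathione S-transferases with an adjusted p lie left of 0.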

How the data were processed

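RNA-seq of H1048 cells was deposited as the authors' tables of their own comparison, the D-F set of libraries against the A-C set. Per the file headers, each gene has the authors' log2 fold change with its p-value, raw and adjusted, named as DESeq2 names them. Programs in the submitters' processing notes are DESeq2, HTSeq, STAR and Trimmomatic, and their genome build is hg38; their versions and settings, the annotation, strand use and any shrinkage are not stated in these sources. The 36 columns per library were not used, because no label matches them to a sample, so depth was not assessed and no count model was fitted.

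Rows with an adjusted p of exactly 1 (977) were treated as having none. The remaining adjusted values equal a Benjamini-Hochberg adjustment over 15976 genes, recomputed here with a function tested on simulated data. Calls use an adjusted p under 0.05 across all genes. Every member described is named, with full values for those called at 2-fold or more, and of each partner list up to 4 genes with the smallest p; others named were chosen after their values were seen. Another 2 genes that match the rule are not reported here and enter no count of members. Members, lists and roles were chosen with earlier results of these data known. Gene positions are from GENCODE 29 (GRCh38), promoters from RefSeq (GRCh38.p14). Tools were Python 3.11.15, pandas 2.3.3 and numpy 2.4.6.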

Additional observations from a re-analysis of the deposited data

How the results depend on the processing

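Of the 39 members with an adjusted p, all kept their call when p-values were adjusted over every row of the table or when fold changes were centred on the median of all genes (0.06 on the log2 scale). Centring turned the sign of ABCF3, which was not called, to -0.03, and of no other member. At an adjusted p under 0.01 the call of ABCB10 was lost, and 8 members lost theirs when a 2-fold change was demanded as well. With that demand 5 members were higher and 5 lower, also after centring; partner genes were 7 higher and 9 lower, or 11 lower after centring, against 29 higher and 32 lower without it, and 24.1% of all genes were called. Counting members without an adjusted p put the median log2 fold change at -0.13 for all members, 0.46 for subfamily B, 0.35 for subfamily C and 1.08 for the potassium channel regulators, all through values shared by many genes. Leaving out members of debated role put it at 2.66 for drug and conjugate efflux and -0.016 for the mitochondrial members, against 1.41 and 0.23 with them. Medians were taken as moved at a shift of 0.1 or more or a change of sign.

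No paired analysis was possible because no label ties the values per library to samples and their replicate numbers; for the same reason the planned count-based test, its filter on low counts and the fits without single replicates were not run. Depth per library was not assessed here, so the fold changes of ABCB1, ABCB4 and ABCC12 carry no estimate of precision beyond their p-values.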

Other observations

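Markers of the sample's cell type and of other cell types were read from the same comparison. Their counts are to be read against the 57.6% of all genes called, 29.7% as higher and 27.9% as lower. The tuft cell markers of this line's subtype were 0 higher and 3 lower of 6 in the D-F set in the authors' deposited table, with AVIL 4.95-fold lower (adjusted p = 5.01e-105), POU2F3 3.28-fold lower (adjusted p = 3.42e-89) and SOX9 2.37-fold lower (adjusted p = 2.02e-47). ASCL2 was at a log2 fold change of 0.33, TRPM5 at 0.78 and CHAT at -0.43, none of them called. Fibroblast markers were 0 higher and 4 lower of 5 with an adjusted p (80.0% called, from few genes), including PDGFRB (-1.86) and LUM (-4.22). Leukocyte (0 of 4) and endothelial (0 of 2) markers had no calls. Of 4 alveolar type II markers, LAMP3 alone was called (0.36, adjusted p = 0.0127 in the authors' deposited table), while SFTPB, SFTPC and NAPSA were not. The values used here give no levels, and the part of these markers in the values of the transporters was not tested.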
